A study of Mus musculus with 18 samples.

Results

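The AP-1 and EGR immediate early factors of mouse bone marrow derived macrophages (BMDM) were examined across 2 genotypes and 3 oxLDL conditions. They are 10 genes of the 18668 in the table, taken by symbol: the Fos genes Fos, Fosb, Fosl1 and Fosl2, the Jun genes Jun, Junb and Jund, and the EGR genes Egr1, Egr2 and Egr3. All 10 were in the table, and 9 passed the filter on low values and were tested among 12838 genes. Egr3 did not pass.

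AP-1 is a family of paired basic leucine zipper proteins that bind DNA as dimers. A Fos protein binds mainly with a Jun partner, whereas Jun proteins can also pair with each other. Relatives of the ATF, BATF and MAF groups serve as further partners. EGR proteins are zinc finger factors that bind GC-rich sites. Many of these genes are transcribed within minutes of a growth factor or Toll-like receptor signal, through MAP kinases, serum response factor and CREB, and their transcripts decay quickly. In macrophages AP-1 acts on cytokine and protease genes, and the EGR factors are known from macrophage differentiation.

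Marrow was taken from Apoe-/- or Apoe-/-/Treml4-/- (DKO) animals on a C57BL6 background, so that deletion of Apoe, the gene of the lipoprotein ligand apolipoprotein E, was shared by all 18 libraries. The cells were grown with M-CSF and then received PBS vehicle (untreated) or oxidised low density lipoprotein, the modified LDL that loads macrophages with lipid, at 10 µg/ml (oxLDL 10) or 60 µg/ml (oxLDL 60). The series' design text gives an exposure of 16 h, while the study's methods give a longer one. Each of the 6 groups held 3 biological replicates, and ages were not given in the sources used here. One treatment label also speaks of LPS, which no sample's group names. The comparisons ask how the 10 genes change with lipid loading in each genotype, and whether loss of Treml4, a receptor of the TREM family, alters their level or that change.

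Depth recovered from the table was 39.7 to 54.2 M reads per library. Treml4 was between 1.86 and 8.39 RPKM in Apoe-/- libraries, and in DKO libraries it was listed at 0 in all but untreated replicate 2, where it was at 0.012 RPKM. The macrophage markers fixed for the check were high in every library, with a summed level of 5560 to 11964 RPKM over 8 genes including Adgre1, Csf1r and Lyz2. Summed levels were at most 0.369 RPKM for dendritic cell, 0.113 for T and B cell, 0.332 for mast cell and basophil and 0.0718 for erythroid markers. Neutrophil markers summed to 27.4 to 75.6 RPKM, with S100a8 at 9.22 to 28.4 and S100a9 at 12.6 to 39.9. Of the other listed neutrophil genes, Ltf was at 1.10 to 2.80 RPKM, Camp at 0.781 to 2.98, Mpo at 0.745 to 1.55, Elane at 0.578 to 1.51 and Ly6g at 0 to 0.026. Fibroblast markers (Col1a1, Col1a2, Col3a1, Pdgfrb and Dcn) summed to 0.617 to 15.1 RPKM and followed the replicate number. Xist transcripts were present in Apoe-/- replicate 2 and DKO replicate 3 at every treatment.

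Levels are in RPKM (reads per kilobase of transcript and M reads). Changes are log2 fold changes on the log2(RPKM + 0.1) scale with limma's standard error (SE) and Benjamini-Hochberg adjusted p over all tested genes. A gene was called where the adjusted p was under 0.05 and the fold was at least 1.4.

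Untreated Apoe-/- cells held mainly Fos, Junb and Jun transcripts. Fos averaged 61.3 ± 3.5 RPKM (SD, n = 3), Junb 56.2 ± 8.4 and Jun 22.3 ± 0.9. The libraries of Fos (57.6 to 64.6 RPKM) and Junb (50.2 to 65.7) overlapped, so the order of these top genes is not resolved, and both lay above all Jun libraries. Jund followed at 6.72 ± 0.90 RPKM, then Fosl2 at 4.16 ± 0.52 and Egr2 at 3.89 ± 1.52, whose libraries overlapped each other and not those of Jund. Fosl1 stood at 0.508 ± 0.390, Egr1 at 0.260 ± 0.050, Fosb at 0.059 ± 0.010 and Egr3 at 0.039 ± 0.014. At oxLDL 60 the order at the top changed: Jun led with 30.1 ± 1.3 RPKM, ahead of Junb at 20.0 ± 0.1 and Fos at 18.8 ± 2.8, and all Jun libraries lay above those of both. In DKO cells Fos led alone when untreated (86.8 to 95.5 RPKM against 54.5 to 76.6 for Junb), and Jun led at oxLDL 60 with 31.5 ± 1.7.

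**Figure D1:**
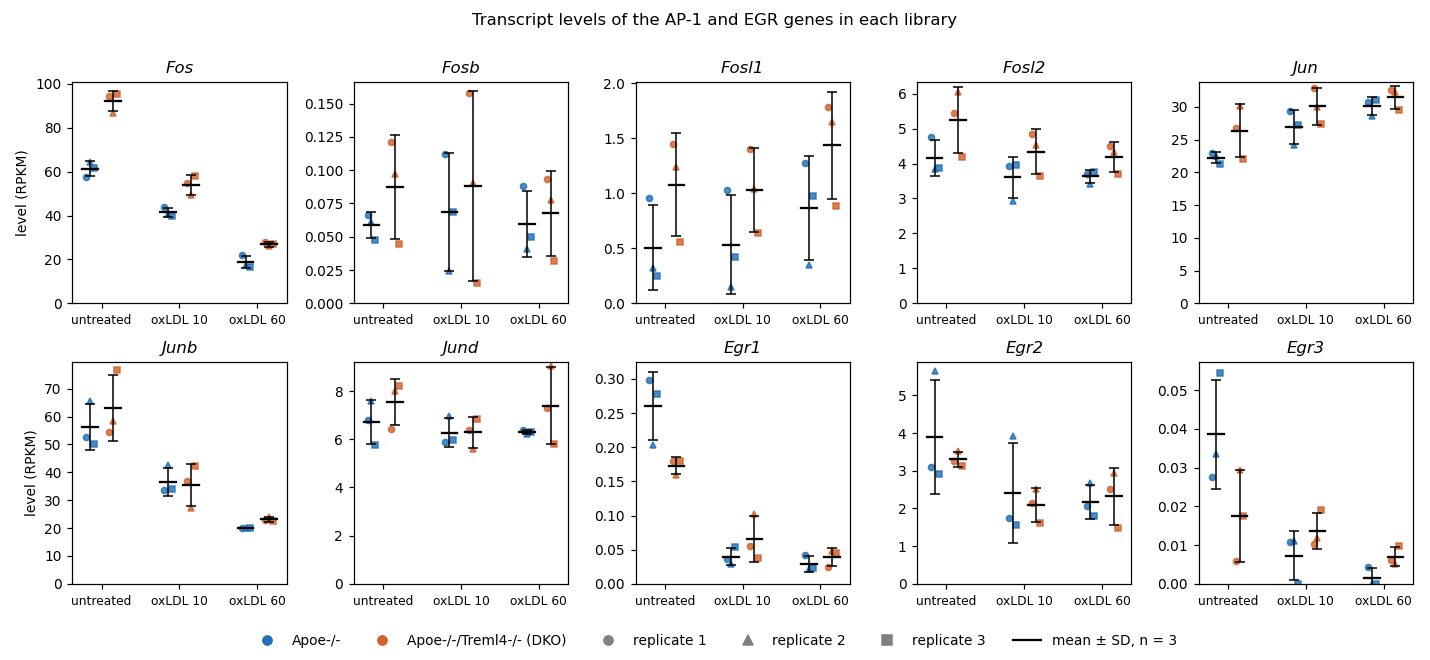
Transcript levels of the 10 genes in RPKM (linear axes from 0) in each of the 18 libraries, by treatment, with Apoe-/- in blue and DKO in orange, one marker shape per replicate number, and bars for mean ± SD (n = 3). Fos and Junb step down with each amount of oxLDL, Egr1 drops at oxLDL 10, and the Fos libraries of the 2 genotypes do not overlap at any treatment.

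Promoter windows from RefSeq (GRCm38.p6, 250 bases before to 50 after a start site, in the direction of the gene) were available for 7 of the 10 genes. No window was found for Fosl1 or Egr3, and none is shown for Egr1. Shown are those of Fos and Junb, whose transcripts fell together, and of Jun, which did not fall. Capitals mark matches, searched on both strands, to the core TGACG of the cAMP response element, or to TGACATCA, the AP-1 element known from the Jun promoter.
Fos, chr12:85473640-85473939, + strand: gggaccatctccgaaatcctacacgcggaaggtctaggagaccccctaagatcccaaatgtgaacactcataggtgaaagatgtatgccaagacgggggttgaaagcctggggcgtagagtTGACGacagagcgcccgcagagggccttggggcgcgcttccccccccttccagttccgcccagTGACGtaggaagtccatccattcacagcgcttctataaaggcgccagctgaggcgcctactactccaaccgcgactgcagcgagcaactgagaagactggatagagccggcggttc
Junb, chr8:84978699-84978998, - strand: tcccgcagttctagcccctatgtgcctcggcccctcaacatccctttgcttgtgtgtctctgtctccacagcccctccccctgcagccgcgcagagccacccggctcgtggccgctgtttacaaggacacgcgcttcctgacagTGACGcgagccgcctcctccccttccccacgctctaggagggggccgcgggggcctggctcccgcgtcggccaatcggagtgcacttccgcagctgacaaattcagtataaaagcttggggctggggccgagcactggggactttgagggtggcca
Jun, chr4:95052173-95052472, - strand: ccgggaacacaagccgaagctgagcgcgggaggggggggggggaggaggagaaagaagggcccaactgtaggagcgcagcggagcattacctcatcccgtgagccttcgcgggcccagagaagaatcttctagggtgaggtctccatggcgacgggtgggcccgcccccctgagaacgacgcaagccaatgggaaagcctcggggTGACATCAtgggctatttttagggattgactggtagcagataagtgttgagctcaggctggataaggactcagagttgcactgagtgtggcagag
The Fos window held TGACG with its first base 129 and 66 bases before the start, and the Junb window held it 106 bases before the start. TGACG occurs in 20.8% of all 32851 windows of this length. The Jun window held TGACATCA 45 bases before the start, a match found in 3.62% of windows. Of the 5 Egr2 windows, 4 held a CArG box, the binding site of serum response factor, which occurs in 1.63% of windows, and 3 of these windows overlap and hold the same box. The windows were also searched for the full cAMP response element TGACGTCA (in 1.79% of windows), the AP-1 elements TGACTCA and TGAGTCA (5.20% together) and the EGR motifs GCGTGGGCG and GCGGGGGCG (3.47% together). None of these was in the 4 windows shown, and GCGGGGGCG was found in those of Fosl2 and Fosb, 79 and 50 bases before the start. These are matches of letters and were not tested as sites. The window of the Egr2 start with the box and TGACG on each strand (chr10:67537619-67537918, + strand) is shown because Egr2 is the EGR gene with the most transcripts here. Its capitals mark TGACG, the CArG box and CGTCA, which is TGACG read on the other strand:
Egr2: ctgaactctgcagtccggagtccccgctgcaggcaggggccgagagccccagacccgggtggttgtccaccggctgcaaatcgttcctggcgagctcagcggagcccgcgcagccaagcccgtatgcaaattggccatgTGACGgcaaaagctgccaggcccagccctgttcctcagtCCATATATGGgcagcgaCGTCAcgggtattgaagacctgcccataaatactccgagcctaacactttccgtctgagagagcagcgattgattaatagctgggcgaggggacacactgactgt

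Fos, the founding AP-1 gene (mm10 chr12:85473890-85477273), fell with oxLDL in both genotypes, with a larger fall at the higher amount. In Apoe-/- cells it was at 57.6, 64.6 and 61.6 RPKM untreated, at 43.7, 40.7 and 39.9 with oxLDL 10, and at 21.9, 17.6 and 16.8 with oxLDL 60. In DKO cells it was at 94.2, 86.8 and 95.5 RPKM untreated, at 54.6, 49.3 and 58.2 with oxLDL 10, and at 28.0, 25.9 and 26.8 with oxLDL 60. Within each genotype no library of one treatment overlapped those of another. Among all tested genes, libraries lay wholly below the untreated ones for 6.16% (Apoe-/-) and 8.90% (DKO) with oxLDL 10 and for 14.9% and 28.3% with oxLDL 60, and oxLDL 60 lay below oxLDL 10 for 15.5% and 25.8%. The log2 fold change at oxLDL 10 was -0.56 in Apoe-/- (SE 0.09, limma adjusted p = 0.00094) and -0.77 in DKO (adjusted p = 9.0e-05). At oxLDL 60 it was -1.71 in Apoe-/- (adjusted p = 5.3e-10) and -1.77 in DKO (adjusted p = 5.4e-10), so that mean Fos was 3.27 and 3.43 times lower than in untreated cells. Between oxLDL 10 and oxLDL 60 mean Fos was 2.21 times lower in Apoe-/- and 2.01 times lower in DKO (adjusted p = 2.8e-07 and 2.0e-06).

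Junb (mm10 chr8:84974484-84978718), a Jun protein that binds DNA with Fos and is a weaker activator than Jun in many settings, fell in the same comparisons. Its Apoe-/- libraries were at 52.6, 65.7 and 50.2 RPKM untreated, 33.6, 42.5 and 34.0 with oxLDL 10, and 20.1, 20.0 and 20.1 with oxLDL 60. In DKO cells it was at 54.5, 58.4 and 76.6 RPKM untreated, 36.9, 27.4 and 42.3 with oxLDL 10, and 22.7, 24.1 and 22.5 with oxLDL 60. The 3 treatments did not overlap in either genotype, and the spread between replicates was smallest at oxLDL 60. The log2 fold change was -0.61 at oxLDL 10 and -1.47 at oxLDL 60 in Apoe-/- (SE 0.15, limma adjusted p = 0.019 and 8.4e-07), and -0.84 and -1.43 in DKO (adjusted p = 0.0032 and 1.3e-06). From oxLDL 10 to oxLDL 60 the change was -0.86 in Apoe-/- and -0.59 in DKO (adjusted p = 0.00069 and 0.011).

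The smaller Junb changes depended on single libraries or on the fit. At oxLDL 10 in Apoe-/- the call was lost without untreated replicate 2, oxLDL 10 replicate 1 or oxLDL 10 replicate 3 (limma adjusted p = 0.096, 0.084 and 0.070). At oxLDL 10 in DKO it was lost with only the compared groups in the fit (adjusted p = 0.060). Between the amounts in DKO it was lost after rescaling the libraries by their median ratio (adjusted p = 0.052), without the Xist-positive libraries (log2 fold change -0.44, under the fold limit) and without oxLDL 10 replicate 3 (adjusted p = 0.057). Of the 2301 exonic bases of Junb, 173 also lie in exons of Prdx2, a peroxiredoxin gene on the other strand. Prdx2 was at 77.9 to 102 RPKM and was called in 0 of the 11 comparisons (log2 fold changes between groups -0.17 to 0.11).

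Jun (mm10 chr4:95049034-95052222), the AP-1 subunit that JNK phosphorylates, was not called in any comparison. In Apoe-/- cells it was at 23.0, 22.5 and 21.3 RPKM untreated, 29.3, 24.2 and 27.3 with oxLDL 10, and 30.7, 28.6 and 31.1 with oxLDL 60. In DKO cells it was at 26.8, 30.1 and 22.1 RPKM untreated, 32.9, 29.9 and 27.4 with oxLDL 10, and 32.6, 32.3 and 29.5 with oxLDL 60. Its values were higher at oxLDL 60 than untreated in 6 of 6 same-numbered pairs of libraries. The share of all genes with 6 of 6 such pairs was not counted, here or for Fosl1, Fosl2 and Egr2 below. At oxLDL 60 in Apoe-/- the adjusted p was under the threshold but the fold was under 1.4 (log2 fold change 0.43, SE 0.10, limma adjusted p = 0.0027). The same change in DKO was 0.27 (adjusted p = 0.056). With the replicate number as a block, the limma adjusted p at oxLDL 60 was 9.2e-05 in Apoe-/- and 0.0063 in DKO. At oxLDL 10 it was 0.015 in Apoe-/- and 0.093 in DKO. The folds stayed under 1.4, so Jun was not called with the block either. With no limit on the fold change Jun at oxLDL 60 in Apoe-/- counts as called. An antisense gene, Junos, has exons on the other strand of Jun and has no values here.

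Because Junb fell and Jun did not, the make-up of the Jun transcripts differed between treatments. It was taken within each library, a measure that does not depend on scaling between libraries. Jun made up 27.9, 23.5 and 27.6% of the summed RPKM of Jun, Junb and Jund in untreated Apoe-/- libraries and 53.7, 52.2 and 54.0% at oxLDL 60. In DKO the Jun share was 30.6, 31.2 and 20.6% untreated and 52.1, 49.4 and 51.0% at oxLDL 60. The ratio of Jun to Junb levels was 0.437, 0.342 and 0.424 in untreated Apoe-/- libraries and 1.53, 1.43 and 1.54 at oxLDL 60. In DKO it was 0.492, 0.515 and 0.288 untreated and 1.43, 1.34 and 1.31 at oxLDL 60. Every untreated library thus held more Junb than Jun, and every oxLDL 60 library held more Jun than Junb. Jund, a Jun protein with steady expression in many cells, made up 7.35 to 8.30% of the sum when untreated and 10.1 to 13.8% at oxLDL 60. The ratio of Fos to Jun levels went from 2.76 ± 0.22 to 0.623 ± 0.088 in Apoe-/- (SD, n = 3) and from 3.58 ± 0.72 to 0.857 ± 0.054 in DKO. These shares and ratios are given as a description, with no test.

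**Figure D2:**
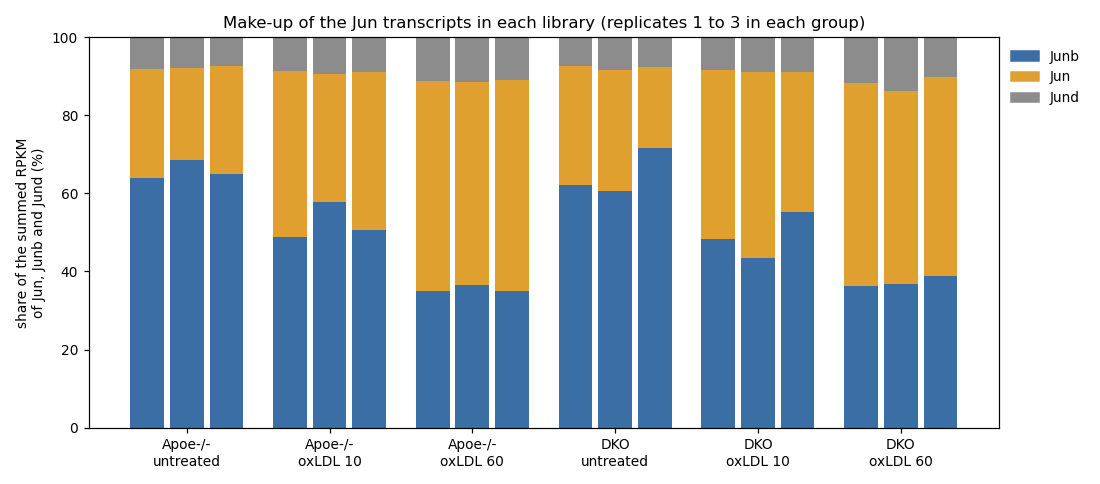
Share of each of Jun, Junb and Jund in their summed RPKM (percent, stacked to the whole) in each library, replicates 1 to 3 in each group from left to right. The Jun share is 20.6 to 31.2% in untreated libraries and 49.4 to 54.0% at oxLDL 60.

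Jund (mm10 chr8:70698949-70700616) ranged from 5.61 to 9.02 RPKM over all libraries, and its log2 fold changes against untreated cells lay between -0.26 and -0.05 (SE 0.14, lowest limma adjusted p = 0.48). Its exons share bases with Gm11175 on the other strand, which has no values here. Fosb, a Fos gene that is induced strongly and briefly in stimulated cells, held only 3 to 28 recovered reads per library. It reached 0.1 RPKM in 3 libraries, and its log2 fold changes against untreated cells were between -0.16 and 0.05 (SE 0.28, lowest adjusted p = 0.74).

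Fosl1 (Fra-1) and Fosl2 (Fra-2), Fos relatives without the strong activation domain of Fos, differed between replicate numbers within each group. In Apoe-/- cells Fosl1 was at 0.956, 0.320 and 0.246 RPKM untreated, 1.03, 0.152 and 0.423 with oxLDL 10, and 1.28, 0.346 and 0.974 with oxLDL 60. In DKO cells it was at 1.44, 1.24 and 0.556 RPKM untreated, 1.41, 1.04 and 0.643 with oxLDL 10, and 1.78, 1.65 and 0.883 with oxLDL 60. Groups overlapped at every step, while the value at oxLDL 60 was above the untreated one in 6 of 6 same-numbered pairs. The log2 fold change at oxLDL 60 was 0.70 in Apoe-/- and 0.42 in DKO (SE 0.55, limma adjusted p = 0.36 and 0.64). With the replicate number as a block the Apoe-/- change was called (SE 0.22, adjusted p = 0.016), as was that from oxLDL 10 to oxLDL 60 in Apoe-/- (log2 fold change 0.72, adjusted p = 0.024). Of the 2033 exonic bases of Fosl1 (mm10 chr19:5447547-5455946), 1163 lie also in Ccdc85b on the other strand. Ccdc85b was at 0.584 to 1.16 RPKM, and how reads of these genes were told apart is not given in the sources used here.

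Fosl2 (mm10 chr5:32135801-32157842) ranged from 2.93 to 6.04 RPKM. Its log2 fold change at oxLDL 60 was -0.18 in Apoe-/- and -0.31 in DKO (SE 0.15, limma adjusted p = 0.38 and 0.14), with lower values in 6 of 6 same-numbered pairs. With the replicate number as a block the limma adjusted p was 0.10 and 0.011, while the fold in DKO stayed under 1.4. No alternative made Fosl2 a called gene.

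Egr1, the best known EGR gene and a target of ERK signalling, was low in all libraries and lowest with oxLDL. In Apoe-/- cells it was at 0.298, 0.203 and 0.278 RPKM untreated, 0.036, 0.030 and 0.054 with oxLDL 10, and 0.042, 0.022 and 0.023 with oxLDL 60. In DKO cells it was at 0.180, 0.159 and 0.180 RPKM untreated, 0.055, 0.103 and 0.038 with oxLDL 10, and 0.025, 0.047 and 0.046 with oxLDL 60. These levels are 23 to 40 recovered reads per untreated library and 3 to 13 per treated library. All treated libraries lay below all untreated ones of either genotype. The share of all genes with this pattern was not counted. The log2 fold change at oxLDL 10 was -1.36 in Apoe-/- and -0.74 in DKO (SE 0.18, limma adjusted p = 0.00035 and 0.029). At oxLDL 60 it was -1.48 and -0.97 (adjusted p = 9.2e-06 and 0.00067). From oxLDL 10 to oxLDL 60 it was -0.12 and -0.24 (adjusted p = 0.77 and 0.43), while mean RPKM was 1.38 and 1.67 times lower. Nearly all treated values lie below the 0.1 added before the log, which shrinks such a step. The test therefore cannot tell whether the fall was larger at the higher amount.

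Egr1 passed the filter of 0.1 RPKM in 3 libraries through the 6 untreated libraries and 1 treated one, so its call is not independent of the filter. With a pseudocount of 1 its 4 folds shrank below the fold limit (log2 fold changes -0.29 to -0.14). The call at oxLDL 10 in DKO was the least firm. It was lost with a pseudocount of 0.01 (limma adjusted p = 0.077), with only the compared groups in the fit (0.12), without the Xist-positive libraries (0.31), and without any 1 of its 6 libraries other than oxLDL 10 replicate 2 (0.060 to 0.12).

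Egr2 (mm10 chr10:67535475-67542188), an EGR factor used as a marker of alternatively activated macrophages, was the EGR gene with the most transcripts. The Apoe-/- libraries held 3.11, 5.65 and 2.92 RPKM untreated, 1.75, 3.93 and 1.55 with oxLDL 10, and 2.07, 2.67 and 1.79 with oxLDL 60. In DKO cells it was at 3.26, 3.53 and 3.12 RPKM untreated, 2.14, 2.51 and 1.62 with oxLDL 10, and 2.52, 2.94 and 1.49 with oxLDL 60. Apoe-/- replicate 2 was the highest of its group at each treatment, and oxLDL values were below untreated ones in 6 of 6 same-numbered pairs at both amounts. As fitted without the block Egr2 was not called. The log2 fold changes were -0.73 and -0.77 in Apoe-/- and -0.65 and -0.54 in DKO at oxLDL 10 and oxLDL 60 (SE 0.31, limma adjusted p = 0.18, 0.077, 0.39 and 0.23). With the replicate number as a block it was called in all 4 (SE 0.14, limma adjusted p = 0.0022, 0.00035, 0.0058 and 0.0062). It was also called without the Xist-positive libraries in Apoe-/- at both amounts (adjusted p = 0.0016 and 0.0022) and in DKO at oxLDL 10 (0.034), in Apoe-/- at oxLDL 10 without oxLDL 10 replicate 2 (0.026), and in Apoe-/- at oxLDL 60 with only the compared groups in the fit (0.036).

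Egr3, an EGR gene induced in activated lymphocytes, held 1 to 10 recovered reads per untreated library and 0 to 4 per treated library (mm10 chr14:70077203-70082614). It was below the filter in all 18 libraries and was not tested.

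**Figure D3:**
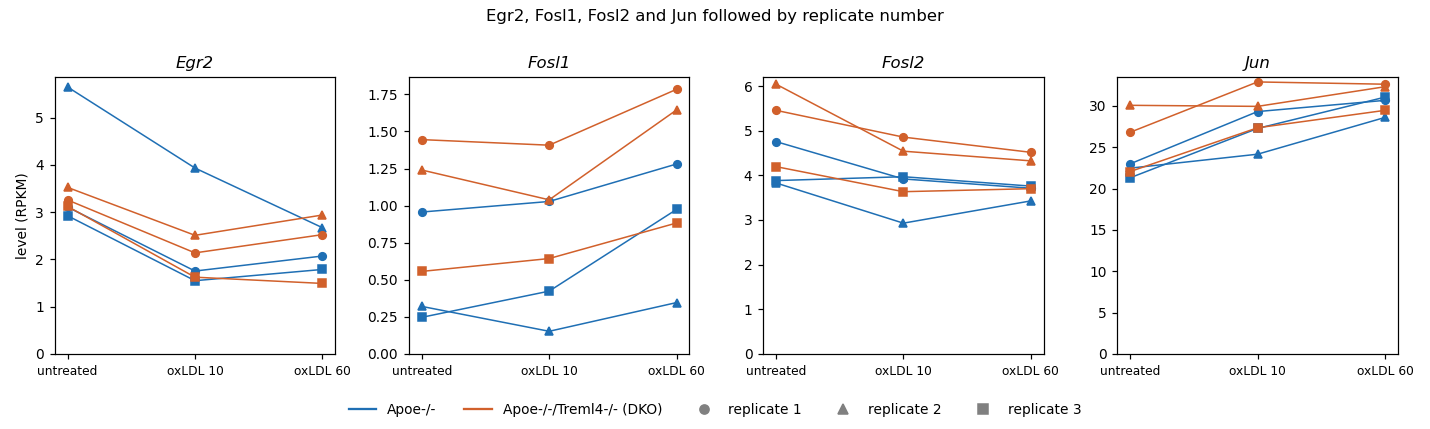
Levels in RPKM (linear axes from 0) of Egr2, Fosl1, Fosl2 and Jun at each treatment, with lines joining libraries of the same replicate number and genotype. The lines run largely side by side, and all 6 Egr2 lines end below their untreated value.

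Counted over the members, oxLDL 60 against untreated gave 0 higher and 3 lower genes (Fos, Junb and Egr1) of 9 tested in each genotype. Among all tested genes 7.13% were called higher and 6.78% lower in Apoe-/-, and 4.87% and 7.31% in DKO. With oxLDL 10 the same genes, 3 of 9, were lower in each genotype, and 0 were higher, against 2.04% lower and 0.748% higher of all genes in Apoe-/- and 1.69% and 0.569% in DKO. Between the amounts, Fos and Junb were lower, 2 of 9 in each genotype, and 0 were higher, against 3.54% lower and 2.91% higher of all genes in Apoe-/- and 3.74% and 1.92% in DKO. Egr1 passed the filter mainly through its untreated libraries. Without it, 2 of 8 members were lower in each of these comparisons with untreated cells. With the block, 5 members were called in Apoe-/- at oxLDL 60: Fos, Junb, Egr1 and Egr2 as lower and Fosl1 as higher. The shares of all genes given here come from the fit without the block and are not a background for that count. Over all genes the block also raised the count in DKO at oxLDL 10, from 290 to 449. The median log2 fold change of the 9 members at oxLDL 60 was -0.18 in Apoe-/- and -0.31 in DKO, where the medians of all genes were 0.06 and -0.06. The 2 genotypes' comparisons use separate libraries.

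**Figure D4:**
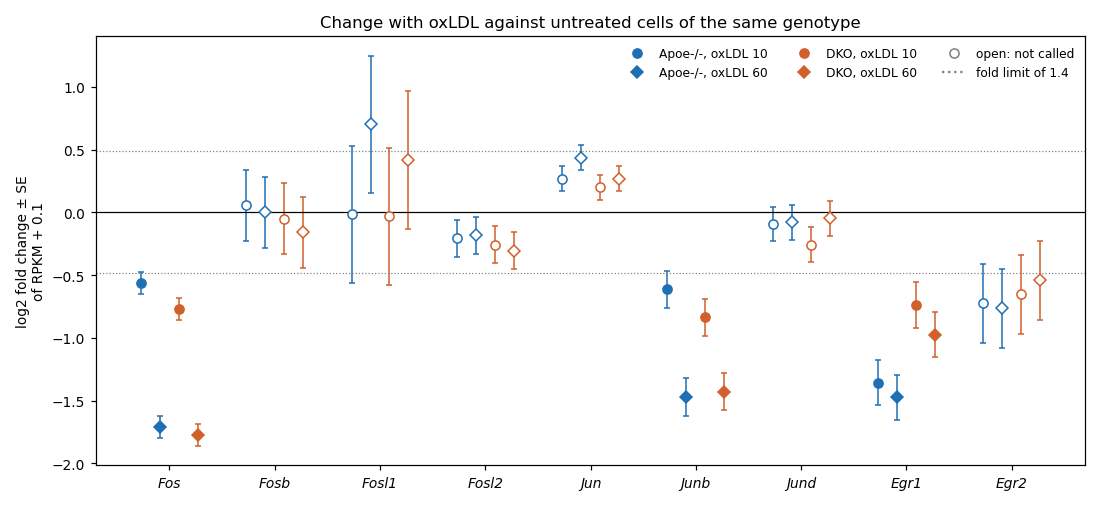
Log2 fold change of RPKM + 0.1 (± SE) with each amount of oxLDL against untreated cells of the same genotype for the 9 tested genes, with filled points for called changes and dotted lines at the fold limit of 1.4. Fos and Junb at oxLDL 60 lie between -1.77 and -1.43, and the Jun points lie between 0.20 and 0.43.

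Between genotypes the difference lay in Fos. DKO exceeded Apoe-/- in every library pair at each treatment, with 86.8 to 95.5 against 57.6 to 64.6 RPKM untreated, 49.3 to 58.2 against 39.9 to 43.7 with oxLDL 10, and 25.9 to 28.0 against 16.8 to 21.9 with oxLDL 60. Libraries were without overlap in this direction for 18.3%, 8.98% and 4.49% of all genes at these treatments. Same-numbered libraries of a genotype deviated together across treatments (median r 0.41), so the treatments are not independent comparisons of the genotypes. Mean Fos was 92.2 RPKM in untreated DKO and 61.3 in untreated Apoe-/- cells (log2 fold change 0.59, SE 0.09, limma adjusted p = 0.0049), where 0.171% of all genes were called higher. It was called with oxLDL 60 (0.53, adjusted p = 0.015), where 0.0779% of genes were called higher, and not with oxLDL 10 (0.38, adjusted p = 0.22), where 0.0623% were called higher.

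The untreated Fos call held in all 17 alternatives (log2 fold change 0.49 to 0.63, limma adjusted p 0.0014 to 0.043). The alternative without a fold limit could not lose it, and the lowest fold change was close to the limit (0.485 on the log2 scale). At oxLDL 60 the call was lost with only the compared groups in the fit (limma adjusted p = 0.30), without the Xist-positive libraries (0.077), and without any 1 of the 6 libraries other than Apoe-/- replicate 1 (0.052 to 0.14). Within each treatment, neutrophil marker sums were also higher in DKO replicates 1 and 2 (42.4 to 75.6 RPKM over the treatments) than in DKO replicate 3 (30.4 to 34.6) and the Apoe-/- libraries (27.4 to 44.3). Their part in the Fos difference was not tested.

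No other member was called between genotypes. Fosl1 had the largest difference (log2 1.05, 1.03 and 0.76 from untreated to oxLDL 60) with an SE of 0.55 (lowest limma adjusted p = 0.33), and Apoe-/- and DKO libraries overlapped at each treatment. Fosl2 differed by 0.32, 0.26 and 0.19 (SE 0.15, lowest adjusted p = 0.28). Junb differed by -0.06 to 0.20 (SE 0.15, lowest adjusted p = 0.58), Jun by 0.06 to 0.23 (SE 0.10, lowest adjusted p = 0.25), Egr2 by -0.17 to 0.05 (SE 0.31) and Egr1 by -0.39 to 0.23 (SE 0.18). Untreated Egr1 was lower in each DKO library (0.159 to 0.180 RPKM) than in each Apoe-/- library (0.203 to 0.298), which did not pass the test (log2 -0.39, adjusted p = 0.29). For 1.23% of all genes the untreated DKO libraries lay wholly below.

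**Figure D5:**
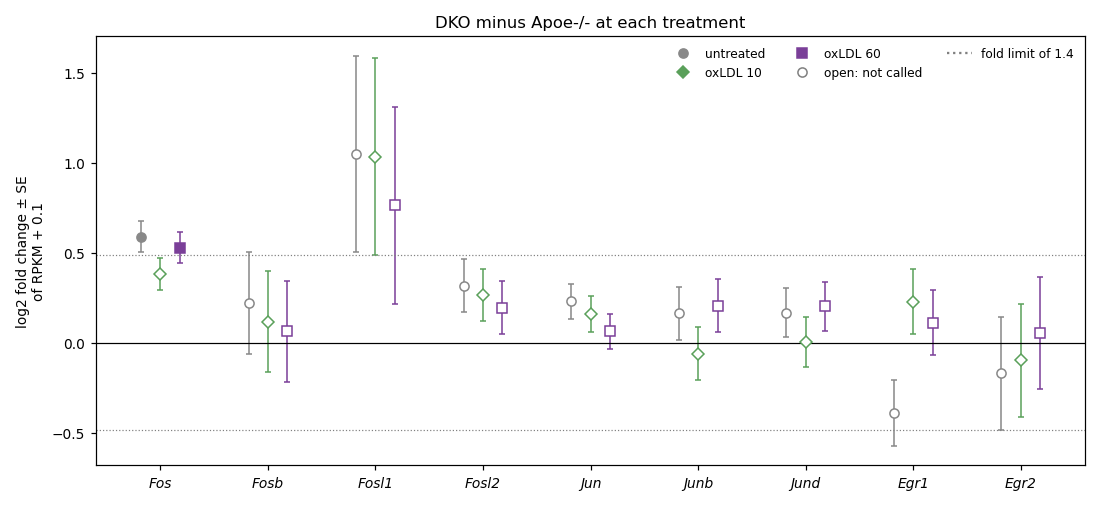
Log2 fold change of RPKM + 0.1 (± SE), DKO minus Apoe-/-, at each treatment for the 9 tested genes, with filled points for called differences and dotted lines at the fold limit of 1.4. The filled points are Fos untreated (0.59) and Fos with oxLDL 60 (0.53).

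The change with oxLDL was then compared between genotypes by the interaction term, and 0 of 9 members were called at either amount by limma. Among all genes 0% were called for oxLDL 10, with 246 at an unadjusted p under 0.05, and 0.0156% for oxLDL 60, with 1256. At oxLDL 60 the median interaction of all genes was -0.11 on the log2 scale. The Fos interaction was -0.21 at oxLDL 10 and -0.06 at oxLDL 60 (SE 0.12, adjusted p = 1.0 and 0.88), and its sign at oxLDL 60 turned to 0.07 after rescaling by the median ratio and to 0.06 without Apoe-/- oxLDL 60 replicate 1. The largest interactions were those of Egr1, 0.62 and 0.50 (SE 0.26, adjusted p = 1.0 and 0.52). No member had same-numbered pairs that all moved one way in one genotype and all the other way in the other.

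Some members varied together within groups. Over the 18 libraries, deviations from the group means correlated between each pair of Fosb, Fosl1, Fosl2 and Jun with Pearson r of 0.79 to 0.92, highest for Fosl2 and Jun. Among other tested genes with a mean of at least 1 RPKM, the most alike for each reached r of 0.94 to 0.95. The deviations of Junb correlated negatively with those of each of Fosb, Fosl1, Fosl2 and Jun (r -0.65 to -0.46). For Fos and Junb the r of the deviations was 0.38, although their levels correlated at 0.93. Fibroblast marker sums also went with the replicate number, at 13.8 to 15.1, 0.617 to 0.954 and 7.51 to 9.48 RPKM in Apoe-/- replicates 1 to 3 and at 3.71 to 4.02, 3.87 to 5.65 and 0.929 to 1.43 in DKO replicates 1 to 3. The Xist-positive replicate had the lowest sums in each genotype, and the part of such cells in the spread of Fosl1, Fosl2 and Jun was not tested. These correlations are descriptions over libraries that share replicate numbers and treatments.

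Of the 3 genes with the most similar profile over the 18 libraries, among tested genes with a mean of at least 1 RPKM, those reported here are given by Pearson r as a description. For Fos they were Slc4a7 (0.98), Klra2 (0.98) and Cd72 (0.98), and for Junb they were Traf1 (0.98), Ptger4 (0.97) and Ptges (0.97). For Jun they included Bcl2l1 (0.96) and Tatdn2 (0.95), and for Egr1 they included Cyp51 (0.93) and Msmo1 (0.92). Egr2 was most like Alas1 (0.93), Slamf8 and Ccrl2, Fosl1 like Slc7a5 (0.94), Smad7 and Shmt2, and Fosl2 like Prag1 (0.93), Plaur and Frmd6. For Fosb (Rab3ip, Ube2s and Zdhhc5) r was at most 0.88, and for Jund (Csf2ra, Cebpb and Wars2) it was at most 0.72.

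The leucine zipper partners of AP-1 moved both ways at oxLDL 60. Of 13 tested, 6 rose in Apoe-/- (Atf3, Atf4, Batf3, Jdp2, Maff and Mafg) and 2 fell (Batf2 and Maf), against 7.13% and 6.78% of all tested genes. In DKO 5 rose, the same without Jdp2, and the same 2 fell, against 4.87% and 7.31%. Their median log2 fold change was 0.35 in Apoe-/- and 0.26 in DKO, where the medians of all genes were 0.06 and -0.06. Atf3, a stress-induced factor that often represses, rose from 101 ± 19.5 to 188 ± 7 RPKM (log2 fold change 0.92, limma adjusted p = 2.6e-05) in Apoe-/-, and from 97.5 ± 6.7 to 197 ± 18 in DKO (1.01, adjusted p = 1.0e-05). Atf4, the effector of the integrated stress response, rose from 87.1 ± 8.4 to 176 ± 3 RPKM in Apoe-/- (1.01, adjusted p = 4.3e-08) and by 0.85 on the log2 scale in DKO. Maf fell from 14.0 ± 2.8 to 5.54 ± 0.85 RPKM in Apoe-/- and from 10.4 ± 3.2 to 3.98 ± 1.72 in DKO. Batf2 had log2 fold changes of -1.43 and -1.37. With oxLDL 10, 2 partners rose and 1 fell in Apoe-/- (all genes 0.748% and 2.04%), and 1 rose and 1 fell in DKO (0.569% and 1.69%).

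Of the EGR co-regulators, Nab1 and Nab2, corepressors that EGR proteins recruit, were measured, and Egr4 was not analysed here. Nab2 fell from 14.5 ± 1.3 to 10.2 ± 0.4 RPKM in Apoe-/- (log2 fold change -0.50, limma adjusted p = 0.0018) and from 14.3 ± 1.0 to 9.75 ± 0.92 in DKO (-0.55, adjusted p = 0.00089). Nab1 fell in DKO (-0.51, adjusted p = 9.4e-06), and in Apoe-/- its change of -0.47 was under the fold limit. These calls were close to that limit. Both in DKO were lost after rescaling by the median ratio (-0.45 for Nab1 and -0.48 for Nab2), and that of Nab1 also without untreated replicate 1 or oxLDL 60 replicate 3 (both -0.48) or without the Xist-positive libraries (-0.46). The Nab2 call in Apoe-/- was lost without untreated replicate 2 or oxLDL 60 replicate 1 (-0.43 and -0.47), with a pseudocount of 1 and without the Xist-positive libraries (both -0.46). Nab1 in Apoe-/- passed the limit after rescaling (-0.53) and without the Xist-positive libraries (-0.49), untreated replicate 1 (-0.51) or oxLDL 60 replicate 2 (-0.49).

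For the lists that follow, the shares of all tested genes called at oxLDL 60 were 7.13% higher and 6.78% lower in Apoe-/- and 4.87% and 7.31% in DKO. Of 6 SRF and ternary complex factor genes, 0 were called in Apoe-/- at oxLDL 60, and in DKO Srf fell (11.2 ± 1.1 to 7.04 ± 0.32 RPKM, log2 fold change -0.66, limma adjusted p = 4.1e-05) and the SRF cofactor Mrtfb rose (0.58, adjusted p = 7.2e-05). The same changes in Apoe-/- were -0.42 for Srf and 0.47 for Mrtfb, under the fold limit. Srf in Apoe-/- passed it after rescaling (-0.49), and Mrtfb without the Xist-positive libraries, untreated replicate 3 or oxLDL 60 replicate 1 or 2 (0.50 to 0.56). The difference between genotypes was not called for any gene of these lists. Among all tested genes it was called for 0.21% untreated, 0.0857% with oxLDL 10 and 0.125% with oxLDL 60. Of 6 MAP kinase genes and 4 genes of M-CSF and GM-CSF receptors and ligands, 0 were called at oxLDL 60 in either genotype. Csf1r, the M-CSF receptor, had log2 fold changes of -0.34 in Apoe-/- and -0.37 in DKO, under the fold limit.

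Among 13 tested MAP kinase phosphatase and Sprouty feedback genes, 2 rose (Dusp4 and Dusp5) and 2 fell (Dusp2 and Spred1) in Apoe-/- at oxLDL 60, against 7.13% and 6.78% of all genes. In DKO 0 rose and the same 2 fell, against 4.87% and 7.31%. Dusp2, a nuclear phosphatase of ERK and p38, fell in Apoe-/- and DKO (log2 fold changes -1.12 and -1.36, limma adjusted p = 0.00021 and 3.3e-05), as did Spred1, an inhibitor of Ras signalling (-0.70 and -0.73). Dusp5 rose from 1.00 ± 0.27 to 2.23 ± 0.57 RPKM in Apoe-/- (1.07, adjusted p = 0.015), a call lost without untreated replicate 3 or oxLDL 60 replicate 1 (adjusted p = 0.062 and 0.066). Dusp1, the phosphatase that ends p38 and JNK signals, had log2 fold changes of 0.46 and 0.32 (limma adjusted p = 0.084 and 0.26), and was called higher in Apoe-/- without the Xist-positive libraries (0.67, adjusted p = 0.00080) and in DKO without oxLDL 60 replicate 3 (0.56, adjusted p = 0.031).

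Of 31 other immediate early genes tested, 4 rose and 7 fell in Apoe-/- at oxLDL 60 (all genes 7.13% and 6.78%), and 3 rose and 7 fell in DKO (4.87% and 7.31%). Their median log2 fold change was -0.00 and -0.13, beside 0.06 and -0.06 for all genes. Zfp36l1, whose protein speeds mRNA decay, fell in Apoe-/- and DKO (log2 fold changes -1.74 and -1.44, the latter call lost without untreated replicate 3 or oxLDL 60 replicate 2, with limma adjusted p = 0.053 and 0.050), and so did Ptgs2, the inducible cyclooxygenase (-1.32 and -1.27). Rhob, a small GTPase gene, rose by 1.38 and 1.08, and Plk2, a stress-induced kinase, rose by 1.24 and 1.25 on the log2 scale. With oxLDL 10, 0 rose in either genotype, and 3 fell in Apoe-/- and 2 in DKO, where 2.04% and 1.69% of all genes were lower.

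Of 19 tested genes known as AP-1 or EGR targets, 3 rose and 6 fell in Apoe-/- at oxLDL 60 (all genes 7.13% and 6.78%), and 1 rose and 6 fell in DKO (4.87% and 7.31%). The same 6 fell in both: Mmp9, Il6, Il1b, Tnf, Ccnd1 and Icam1. Il1b went from 6.26 ± 2.19 to 0.364 ± 0.204 RPKM in Apoe-/- (log2 fold change -3.81, limma adjusted p = 7.4e-07) and from 6.58 ± 3.23 to 0.317 ± 0.169 in DKO (-3.99, adjusted p = 5.0e-07). Tnf fell from 93.2 ± 10.1 to 31.7 ± 5.8 RPKM in Apoe-/- (-1.56, adjusted p = 3.7e-07), and its log2 fold change in DKO was -1.49. Mmp12, the macrophage elastase, rose from 81.5 ± 21.6 to 238 ± 38 RPKM in Apoe-/- (1.56, adjusted p = 0.027) and from 108 ± 60 to 285 ± 132 in DKO (1.47, adjusted p = 0.042), and both calls were lost without the filter on low values (adjusted p = 0.064 and 0.091). The Apoe-/- call was also lost without untreated replicate 1 or 3 or oxLDL 60 replicate 1 or 2 (0.064 to 0.087), and the DKO call without untreated replicate 3 or oxLDL 60 replicate 1 or 2 (0.13 to 0.21), with only the compared groups in the fit (0.098) and without the trend (0.061). No gene of any of these lists was called between genotypes at any treatment. Of all tested genes, 0.21% were called between genotypes untreated, 0.0857% with oxLDL 10 and 0.125% with oxLDL 60. The absence of calls in lists of this size thus says little.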

How the data were processed

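Gene levels in RPKM were deposited by the authors as 1 table for the 18 libraries. Per the labels, the libraries were stranded and reads were aligned to mm10 with STAR. The study's methods name RnaSeqC and Subread in the workflow, and which of them made these values and with which strand setting is not given in the sources used here, and the labels name more than one sequencing run type. The values are not counts, so no count model was used. Relative depth was recovered from the most common ratio of low RPKM values between libraries. The smallest steps of RPKM in 516 genes with 1 transcript set its scale in reads. As a check, steps of low genes were fitted in every other library. In the remaining libraries, 99.5% of 12334 low values lay within 0.05 of a whole number of reads (10% by chance).

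Here, log2(RPKM + 0.1) was fitted with limma 3.58.1 (R 4.3.3) with 6 group means and a mean-variance trend, for genes with at least 0.1 RPKM in 3 libraries. The fit was tested on simulated data. The members and gene lists were chosen with earlier results of these data known. All 10 members are named; from each list up to 3 called genes with the largest fold change and a mean of at least 1 RPKM per oxLDL 60 comparison, and Atf3, Nab1, Nab2, Dusp1, Srf, Csf1r and Treml4 in any case.

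Replicate numbers come from the sample titles. Within a genotype, deviations of same-numbered libraries correlated in all 18 pairs (r 0.18 to 0.69, median 0.41; across genotypes the median was -0.17), so the number was used as a block within genotype as an alternative. Whether a number marks 1 animal is not stated. Gene positions are from GENCODE (mm10). Alternatives changed the pseudocount, filter, scaling, samples in the fit, trend, fold limit, Xist-positive libraries and each library in turn. Some genes of similar profile are not reported here.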

Additional observations from a re-analysis of the deposited data

How the results depend on the processing

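The number of members called was within 1.5 times that reported under all alternatives but these. With the replicate block, Apoe-/- oxLDL 60 against untreated had 5 (Egr2 added as lower and Fosl1 as higher). In fits of the compared groups alone, DKO oxLDL 10 against untreated had 1 and DKO against Apoe-/- at oxLDL 60 had 0. Between the amounts in DKO it was 1 after median-ratio rescaling and 1 without the Xist-positive libraries, which also gave 0 for DKO against Apoe-/- at oxLDL 60. Leaving out 1 library gave 2 to 4 members at oxLDL 10 in Apoe-/-, 2 to 3 in DKO, 1 to 2 between the amounts in DKO and 0 to 1 between genotypes at oxLDL 60. The block changed no call of a member other than those of Egr2 and Fosl1 given above. The Fos interaction at oxLDL 60 (-0.061) turned to 0.073 after rescaling and, leaving out 1 library, ran from -0.137 to 0.057 (without Apoe-/- oxLDL 60 replicate 1). Of 814 recomputed values of the 47 member changes reported singly, 774 kept direction and call, 26 lost the call and 12 gained it. The cause of these shifts was not tested.

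Counts over all genes, used as background, moved further. Without the fold limit they were 904, 3873 and 1731 (from 358, 1786 and 829) in the 3 Apoe-/- treatment comparisons and 510, 3319 and 2000 (from 290, 1564 and 726) in the DKO ones, and with the block DKO oxLDL 10 had 449. For DKO against Apoe-/- untreated the 27 genes became 17 without the filter, 13 with only the groups compared, 42 with the block, 51 without the fold limit, 172 with a term for Xist-positive libraries and 308 without these libraries. With oxLDL 10 the 11 genes became 4, 75 and 110, and with oxLDL 60 the 16 genes became 3, 49 and 74, with only the groups compared, the Xist term and without these libraries. The interaction counts of 0 and 2 were between 0 and 5. The RPKM table sets the limit: Egr1, Egr3 and Fosb rest on 0 to 40 reads per library, where 3 reads per kilobase equal 0.055 to 0.075 RPKM.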
